A study of Homo sapiens with 8 samples.

Results

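The genes described here are 55 of 19775 that stood higher in breast epithelial cells grown with all-trans-retinoic acid (ATRA) than in the same cells without it and than in the line those cells came from. They were chosen from measured values. Each gene was given by the brightest probe set that names it alone, a probe set being the group of short probes that reports 1 transcript on the array, and its level was the log2 of the deposited signal. A gene was a member when the lowest of the 4 ATRA arrays exceeded the highest of the 4 arrays of both lines by at least 0.7 and the mean of the ATRA arrays was 6 or more. ESR1, CYP26B1, CYP26A1 and genes whose symbols start with KRT, COL or HOX were left out, which removed 4 of the 59 genes that met the values (KRT13, CYP26B1, KRT80 and HOXA2). The distance between the lowest ATRA array and the highest line array is called the gap below. Because the gap chose the members, gaps and differences between ATRA and either line are given as descriptions, with no test.

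RNA had been measured on 8 Affymetrix U133 Plus 2.0 arrays, 2 in each of 4 groups. MCF-10F is a spontaneously immortalized, normal-like human breast epithelial line and received no ATRA. The trMCF clone 11 cells are a single ring-cloned colony from MCF-10F cells that had been treated with a high dose of estradiol, so they stand for 1 clone and not for transformed cells in general. The other groups were this clone after 26 days of continuous 1 μM or 10 μM ATRA. The estradiol treatment and the cloning are thus shared by all groups but MCF-10F, and no array holds MCF-10F cells given ATRA. Whether the untreated clone received the DMSO vehicle is not stated, nor is it stated that replicate arrays hold separately grown cells, so p-values measure only the spread between these arrays. For trMCF clone 11 replicate 1 the title names the clone but the disease-state tag reads normal. The title was followed, and calls that rest on it are also given without it.

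Array medians of the signal lay between 47.3 and 48.8. All 8 epithelial markers measured had a mean level of 6 or more in every group, except KRT14 at 10 μM. KRT14 was far lower with ATRA, at 11.77 in MCF-10F, 11.90 in the clone, 7.29 at 1 μM and 5.25 at 10 μM. Among markers of other cells, 4 of 8 fibroblast, 5 of 6 neural and 3 of 5 muscle markers reached 6 in some group. So did 2 of 5 leukocyte, 2 of 5 adipocyte and 1 of 6 endothelial markers. PTPRC, the pan-leukocyte marker, lay at 3.34 to 3.64 and CDH5, an endothelial cadherin, at 3.86 to 4.31. CD14, a monocyte receptor, was at 7.13 in MCF-10F, 6.99 in the clone, 8.90 at 1 μM and 9.26 at 10 μM. PECAM1, an adhesion molecule of endothelium and platelets, was at 8.39, 7.55, 9.40 and 9.94 in the same order. CD14 and PECAM1 moved in the direction of the members. The fibroblast markers FAP (10.45, 8.32, 7.38 and 6.48) and COL1A1 (9.76, 8.47, 6.80 and 6.36) were lower with ATRA than in both lines. COL1A2 (7.57, 5.01, 4.99 and 5.16) and DCN (7.48, 6.27, 6.23 and 6.81), which also reached 6, were not below the clone at both doses. LUM, under 6 in every group, was higher with ATRA (3.64, 2.98, 3.83 and 4.06). COL3A1, PDGFRA and PDGFRB lay between 3.94 and 5.55 in every group. The part of these markers in any result was not tested.

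Retinoic acid, made from vitamin A, enters the nucleus and binds retinoic acid receptors (RARs), which pair with retinoid X receptors on DNA. The paired receptors recognize direct repeats of a short half-site, and the ligand exchanges corepressors for coactivators. Genes bound by the receptors respond first, and many others follow through the transcription factors, enzymes and secreted ligands made in the first wave. In epithelia retinoids are known for holding mucosal and secretory differentiation against keratinization. After 26 days, early and late responses cannot be told apart by these arrays.

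The gaps ran from 0.74 to 4.74 with a median of 1.04, a 2.05-fold distance between the lowest treated and the highest untreated array. For 28 members the gap was at least 1, for 10 at least 1.5 and for 2 at least 2. The membership rule took 0.278% of all genes and 0.496% of the 11082 genes with an ATRA mean of 6 or more. Just inside the limit stood SRGAP3 at 0.74, ANXA10 at 0.74 and DISP2 at 0.75, and just outside it VSIR at 0.70, NDUFA3 at 0.69 and DFFA at 0.68. Another 3 genes (GSG1, TIAM1-AS1 and LOC100287290) met the gap with an ATRA mean under 6. Without MCF-10F replicate 1 the rule would have taken 154 genes and without MCF-10F replicate 2 it would have taken 88, all 55 members among them each time, so these arrays limited membership most. The mirrored rule, for genes lower with ATRA than in both lines, took 96 genes.

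Between the means of the groups, ATRA stood above trMCF clone 11 by a median of 1.74 (0.94 to 5.45) over the members and above MCF-10F by 1.85 (0.93 to 5.06). Over all genes the same medians were -0.04 and 0.03. The highest untreated array was an MCF-10F array for 32 members and a trMCF clone 11 array for 23, so neither line alone set the limit. Replicate arrays of the treated cells were closer to each other than those of the lines. The median distance between the 2 arrays of a group was 0.39 in MCF-10F, 0.41 in the clone, 0.14 at 1 μM and 0.18 at 10 μM over the members, and 0.26, 0.38, 0.10 and 0.12 over genes with an ATRA mean of 6 or more. More than 1 log2 unit separated the pair of arrays for 8 members in MCF-10F, 3 in the clone, 0 at 1 μM and 1 at 10 μM.

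**Figure D1:**
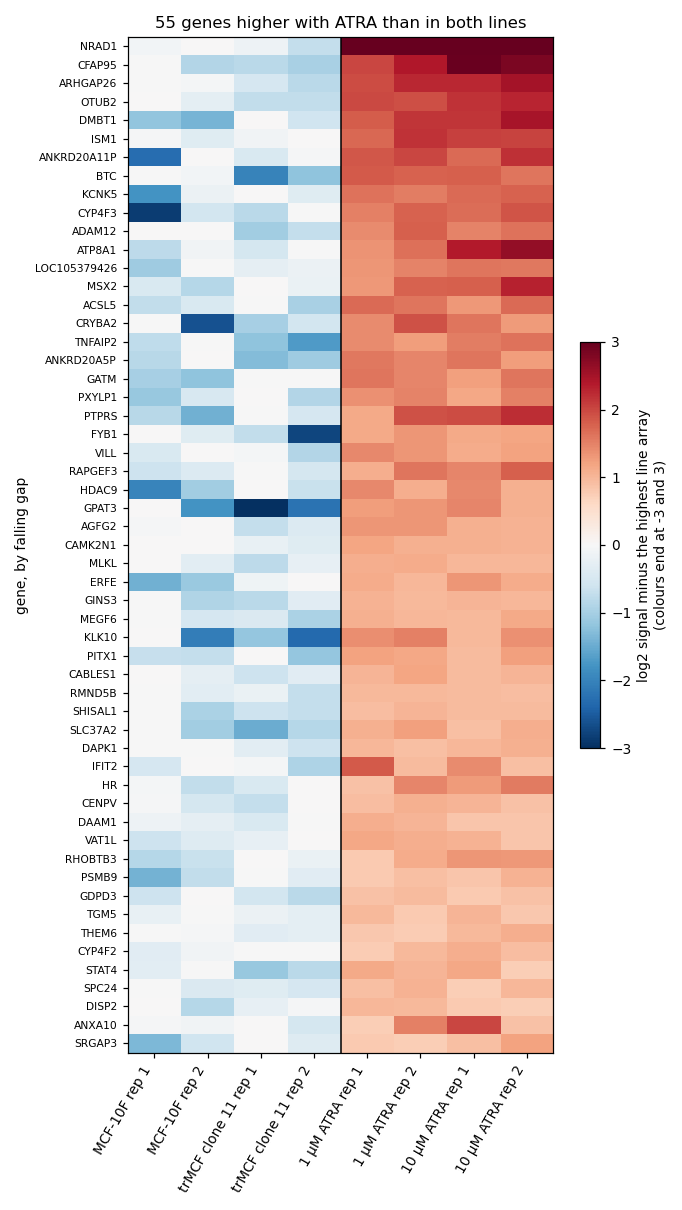
Level of each of the 55 members on each of the 8 arrays, drawn as the log2 signal minus that gene's highest line array (0 is white, higher is red, lower is blue; colours end at -3 and 3). Genes run from the largest gap (NRAD1, 4.74) to the smallest (SRGAP3, 0.74), and every treated array lies above 0 because the rule required it.

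Of the members, 51 are protein coding, 2 are long noncoding RNAs and 2 are transcribed pseudogenes. They lie on all 22 autosomes, with 6 on chromosome 5 and 5 on chromosome 19. The closest pair was CYP4F3 and CYP4F2, 215.2 kb apart on chromosome 19, and the next closest, TGM5 and GATM on chromosome 15, lay 2094.2 kb apart. The probe sets of 24 members carry a suffix that marks probes shared with other transcripts, so their values can include relatives.

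RefSeq promoters (GRCh38.p14, 250 bases before to 50 after the start) were matched for 44 members. RAR half-sites were searched on either strand as AGGTCA, with G also allowed for the opening A and T for the second G. At least 1 was found in 14 members (31.8%), beside 38.6% of the 35116 promoters of the table. Direct repeats of these letters spaced by 1, 2 or 5 bases, the arrangements RAR pairs are known to bind, were found in 0 member promoters and in 0.131%, 0.0399% and 0.0883% of all promoters. The letters TATAAA stood somewhere on the given strand of the window in 5 members (11.4%, against 7.33% of all promoters). Position was not considered, so a match need not be a TATA box. The median GC content was 61.9% in the members and 58.7% in all promoters. The windows below all come from the 14 members with a half-site, so they do not stand for the other members. Capitals mark the half-sites. NRAD1 (chr13:44022085-44022384, plus strand) has 1 half-site starting 24 bases after the start, DMBT1 (chr10:122560504-122560803, plus strand) 1 at the first base of the window, ACSL5 (chr10:112375018-112375317, plus strand) 2, the only member with more than 1, and TNFAIP2 (chr14:103123211-103123510, plus strand), a gene known for its response to retinoic acid, 1 starting 29 bases after the start.
NRAD1: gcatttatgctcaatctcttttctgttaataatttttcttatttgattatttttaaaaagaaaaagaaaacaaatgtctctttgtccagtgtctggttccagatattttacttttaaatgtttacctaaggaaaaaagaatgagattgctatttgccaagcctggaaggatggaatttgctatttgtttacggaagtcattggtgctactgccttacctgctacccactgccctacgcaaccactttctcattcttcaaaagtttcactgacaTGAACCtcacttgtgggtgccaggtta
DMBT1: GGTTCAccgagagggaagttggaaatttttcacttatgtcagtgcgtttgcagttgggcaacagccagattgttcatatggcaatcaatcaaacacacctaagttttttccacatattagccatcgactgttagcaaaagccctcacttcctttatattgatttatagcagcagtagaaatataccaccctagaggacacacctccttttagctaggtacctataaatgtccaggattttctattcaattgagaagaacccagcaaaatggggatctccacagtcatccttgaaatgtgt
ACSL5: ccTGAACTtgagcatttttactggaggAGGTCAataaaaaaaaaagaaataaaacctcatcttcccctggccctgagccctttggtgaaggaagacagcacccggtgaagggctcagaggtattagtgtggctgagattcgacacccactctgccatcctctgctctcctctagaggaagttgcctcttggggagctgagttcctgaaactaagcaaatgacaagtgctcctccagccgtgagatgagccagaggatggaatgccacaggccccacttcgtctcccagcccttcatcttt
TNFAIP2: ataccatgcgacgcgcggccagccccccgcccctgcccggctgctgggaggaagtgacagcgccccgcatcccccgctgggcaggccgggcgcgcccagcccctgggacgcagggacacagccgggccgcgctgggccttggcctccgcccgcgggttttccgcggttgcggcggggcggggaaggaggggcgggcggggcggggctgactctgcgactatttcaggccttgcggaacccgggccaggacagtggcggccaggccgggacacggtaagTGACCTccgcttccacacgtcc
No direct repeat at the 3 spacings searched is present in any of these windows, which says only that these letters do not stand there, and distant sites were not searched.

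NRAD1, a long noncoding RNA known from triple-negative breast cancer cells as regulated by retinoic acid, had the largest gap. Its levels were 3.92 and 4.0 in MCF-10F, 3.85 and 3.29 in the clone, 8.74 and 9.21 at 1 μM and 8.97 and 9.15 at 10 μM. All 4 line arrays had a signal under 16, near background, so the 26.8-fold gap is a distance from background and its true size is uncertain. The same holds for CFAP95, named for cilia and flagella, at 3.89 and 3.02 in MCF-10F, 3.08 and 2.91 in the clone, 5.90 and 6.29 at 1 μM and 6.86 and 6.71 at 10 μM. Its other probe set was dim and had a gap of -0.67. The second long noncoding RNA, LOC105379426, ranged from 6.52 to 7.59 in the lines and from 8.92 to 9.19 with ATRA. Both pseudogenes belong to the ANKRD20A family, whose copies are nearly identical, so their values are uncertain. ANKRD20A11P was at 6.75 and 9.05 in MCF-10F, 8.58 and 9.0 in the clone and 10.75 to 11.23 on the ATRA arrays. MCF-10F replicate 1 stood far below the other line arrays for this gene. ANKRD20A5P was at 4.87 to 6.18 in the lines and 7.43 to 7.79 with ATRA, whereas ANKRD20A12P had a gap of -0.50.

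**Figure D2:**
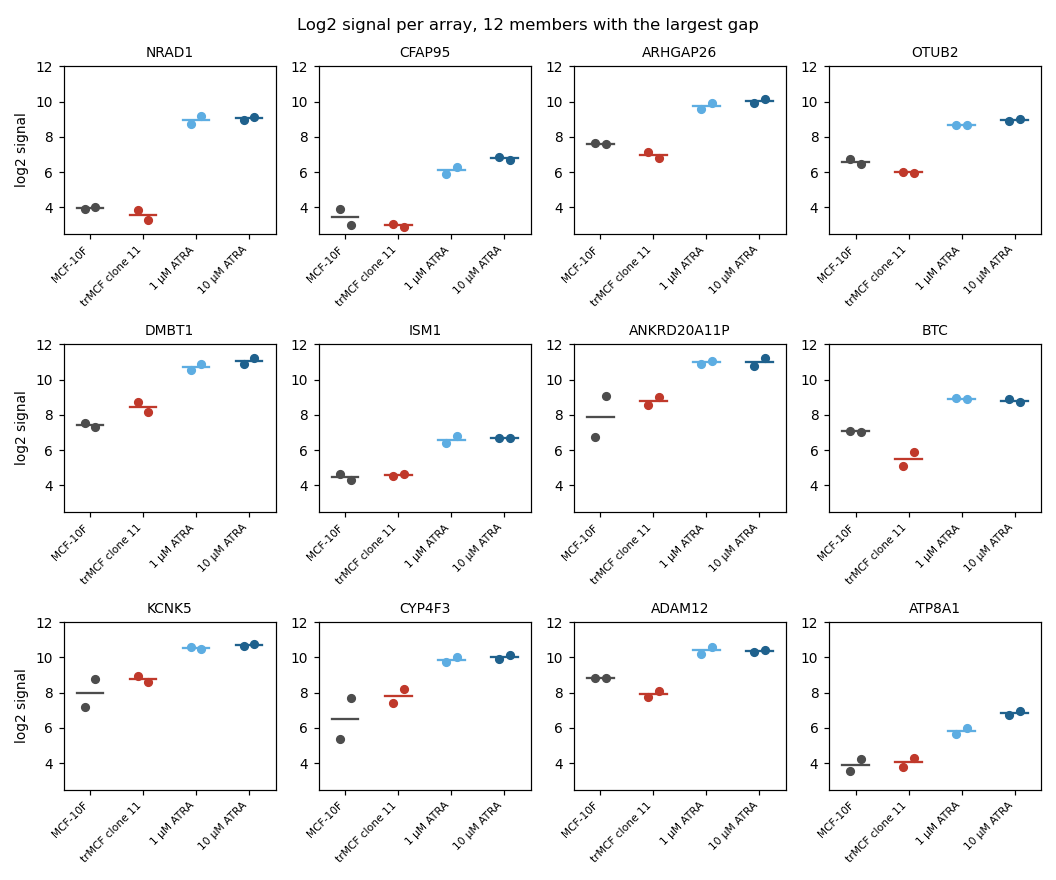
Log2 signal on each of the 8 arrays (points) and the mean of each group (lines) for the 12 members with the largest gap. All 4 ATRA arrays of each gene lie above both lines, and MCF-10F replicate 1 lies far below the other line arrays for ANKRD20A11P and CYP4F3.

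Secreted proteins, ligands and proteases made up 7 members (DMBT1, ISM1, BTC, ADAM12, ERFE, MEGF6 and KLK10), with gaps of 0.96 to 1.81. DMBT1, a scavenger-receptor glycoprotein of mucosal secretions, was at 7.54 and 7.33 in MCF-10F, 8.73 and 8.13 in the clone, 10.54 and 10.88 at 1 μM and 10.87 and 11.20 at 10 μM. The clone arrays lay above MCF-10F and the treated arrays above both. BTC, betacellulin, a ligand of the EGF receptor and ERBB4, was at 7.10 and 7.02 in MCF-10F, 5.09 and 5.89 in the clone, 8.94 and 8.88 at 1 μM and 8.89 and 8.71 at 10 μM. Here the clone was the lowest group and ATRA the highest. Its second probe set had a gap of 1.13. ISM1, a secreted protein known as isthmin, lay at 4.27 to 4.65 in the lines and 6.37 to 6.81 with ATRA. ADAM12, a membrane metalloprotease that can release EGF-family ligands, was at 8.81 on both MCF-10F arrays, 7.77 and 8.10 in the clone and 10.22 to 10.61 with ATRA. Of its other probe sets, 2 had gaps of 1.22 and 0.76, 1 dim one 0.20, and 1 a gap of -0.60, so its probe sets disagree. ERFE, erythroferrone, a secreted regulator of iron supply, was at 6.74 and 7.07 in MCF-10F, 8.06 and 8.18 in the clone and 9.17 to 9.5 with ATRA. KLK10, a kallikrein-related secreted protease, was at 9.36 and 7.29 in MCF-10F, 8.20 and 7.03 in the clone and 10.32 to 10.87 with ATRA. Its line arrays spread over more than 2 log2 units, and the highest of them, MCF-10F replicate 1, set its gap of 0.96. MEGF6, a protein with many EGF-like repeats, lay at 7.21 to 8.15 in the lines and 9.12 to 9.28 with ATRA. Its other probe set, also bright, had a gap of -0.16, so the probe sets of MEGF6 disagree.

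None of the measured relatives of BTC, KLK10 and ADAM12 met the rule. Among EGF-family ligands, EREG had a gap of 0.48, TGFA 0.26, HBEGF -0.05 and EGF -1.15. In limma's moderated test, EREG rose with ATRA against the clone by 2.13 (SE 0.361, adjusted p = 0.0144), or stood 1.98 higher (adjusted p = 0.0539) without trMCF clone 11 replicate 1, while its difference from MCF-10F was 1.26 (adjusted p = 0.132). TGFA rose against the clone by 0.86 (SE 0.138, adjusted p = 0.0122; adjusted p = 0.0173 without that array), with 0.45 against MCF-10F (adjusted p = 0.16). Within the kallikreins, KLK6 had a gap of 0.48, KLK5 one of -0.03 and KLK7 one of -2.31, and of the 13 measured relatives of KLK10 none reached 0.7. KLK7 was at 11.85 and 11.28 in MCF-10F, above all its other arrays.

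Enzymes of lipid, creatine and related metabolism gave 9 members with gaps of 0.77 to 1.52. CYP4F3, which hydroxylates leukotriene B4 and other fatty acids, was at 5.39 and 7.68 in MCF-10F, 7.43 and 8.23 in the clone, 9.75 and 10.01 at 1 μM and 9.90 and 10.12 at 10 μM. The MCF-10F arrays differed by more than 2 log2 units, yet all treated arrays lay above every line array. CYP4F2, a vitamin K and fatty acid hydroxylase, lay at 5.57 to 5.90 in the lines and 6.67 to 6.99 with ATRA. Its probe set can bind other CYP4F transcripts, so the share of CYP4F3 in its signal is unknown. In the same family CYP4F12 had a gap of 0.41, CYP4F11 one of 0.12, CYP4F8 one of -0.21 and CYP4F22 one of -0.45. ACSL5, which activates long-chain fatty acids to their CoA esters, was at 5.75 and 6.03 in MCF-10F, 6.48 and 5.52 in the clone and 7.78 to 8.19 with ATRA. Its second probe set gave a gap of 1.38, and ACSL1, ACSL4 and ACSL6 had gaps of -0.48, -1.92 and -0.61. GPAT3, which starts the synthesis of triglycerides and phospholipids, was at 9.43 and 7.64 in MCF-10F, 6.25 and 7.22 in the clone and 10.49 to 10.89 with ATRA. GPAT2 followed with a gap of 0.62, and GPAT4 had -0.95. GATM, which catalyses the first step of creatine synthesis, was at 6.16 and 5.96 in MCF-10F, 7.15 and 7.16 in the clone and 8.39 to 8.78 with ATRA. It had 7 other probe sets, of which the only bright one had a gap of 1.0 and the 6 dim ones lay below 0. PXYLP1, a phosphatase of proteoglycan linkers, ranged over 8.32 to 9.46 in the lines and 10.61 to 10.98 with ATRA. TGM5, an epidermal transglutaminase, lay at 6.67 to 6.95 and 7.73 to 7.96, while TGM1 and TGM2 had gaps of -1.36 and -1.24. GDPD3, a lysophospholipase D, had a gap of 0.78, and THEM6, a member of the thioesterase superfamily by name, one of 0.77.

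The 4 transcription and chromatin regulators were MSX2, HDAC9, PITX1 and HR. MSX2, a homeobox repressor of BMP-responsive tissues, was at 5.06 and 4.67 in MCF-10F, 5.53 and 5.32 in the clone, 6.83 and 7.30 at 1 μM and 7.31 and 7.83 at 10 μM. Its other bright probe set had a gap of 0.29, and its paralogue MSX1 had a gap of -0.29. HDAC9, a class IIa histone deacetylase, was at 6.32 and 7.27 in MCF-10F, 8.31 and 7.65 in the clone and 9.38 to 9.75 with ATRA. Both clone arrays lay above both MCF-10F arrays for HDAC9. HDAC4, HDAC5 and HDAC7 had gaps of -0.22, -3.0 and -0.44. PITX1, a homeobox factor of hindlimb and pituitary development, lay at 6.94 to 8.11 in the lines and 9.06 to 9.34 with ATRA, and PITX3 had a gap of -0.40. HR, the hairless corepressor of nuclear receptors, lay at 7.13 to 7.88 and 8.76 to 9.44, and its other probe sets had gaps of 0.47 and -0.10.

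Genes known from immune signalling, the interferon response and cell death gave 7 members with gaps of 0.75 to 1.25. TNFAIP2 was at 9.10 and 9.86 in MCF-10F, 8.66 and 8.16 in the clone, 11.29 and 11.12 at 1 μM and 11.39 and 11.50 at 10 μM. The clone lay below MCF-10F on both arrays and treated cells above both lines. Its other probe set had a gap of 0.06. FYB1, an adaptor protein of T cells and platelets, was at 8.92 and 8.56 in MCF-10F, 8.18 and 6.16 in the clone and 10.04 to 10.23 with ATRA. Its 3 other bright probe sets had gaps of 1.08, 1.12 and 1.16. STAT4, which transmits interleukin-12 signals, lay at 5.28 to 6.41 in the lines and 7.16 to 7.58 with ATRA. FYB1 and STAT4 are best known from leukocytes, and PTPRC was near background in all groups while CD14 was higher with ATRA, as given above. IFIT2, an interferon-induced RNA-binding protein, was at 5.64 and 6.14 in MCF-10F, 6.07 and 5.21 in the clone, 7.98 and 7.09 at 1 μM and 7.55 and 7.03 at 10 μM. Its second probe set had a gap of -0.75, so the probe sets disagree. IFIT3 rose by 3.13 against the clone (SE 0.205, adjusted p = 0.00104 in limma, or 0.00352 without trMCF clone 11 replicate 1) and had a gap of 0.55, IFIT5 a gap of -0.24 and IFIT1 one of -2.23. PSMB9, an immunoproteasome subunit, was at 6.43 and 7.10 in MCF-10F, 7.84 and 7.50 in the clone and 8.63 to 8.88 with ATRA. MLKL, the pore-forming executor of necroptosis, lay at 8.15 to 8.93 in the lines and 9.92 to 10.04 with ATRA, and RIPK3, the kinase that activates it, was at 5.38 to 5.48 in the means of the lines and of ATRA. DAPK1, a death-associated kinase, lay at 9.36 to 9.99 and 10.89 to 11.06, and DAPK2 had a gap of -2.44.

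Signalling and cytoskeleton genes gave 9 members (ARHGAP26, PTPRS, VILL, RAPGEF3, CAMK2N1, CABLES1, DAAM1, RHOBTB3 and SRGAP3) with gaps of 0.74 to 1.95. ARHGAP26, which switches off RhoA and CDC42, was at 7.63 and 7.58 in MCF-10F, 7.14 and 6.82 in the clone, 9.58 and 9.90 at 1 μM and 9.90 and 10.14 at 10 μM. A second bright probe set gave a still larger gap of 2.48, and another bright one 0.63. PTPRS, a receptor tyrosine phosphatase, was at 6.00 and 5.39 in MCF-10F, 6.84 and 6.35 in the clone, 7.98 and 8.76 at 1 μM and 8.81 and 9.06 at 10 μM. RAPGEF3, a cAMP-activated exchange factor for Rap proteins, lay at 6.31 to 6.93 and 8.03 to 8.73, and CAMK2N1, an inhibitor of CaM kinase II, at 10.31 to 10.68 and 11.72 to 11.86. CABLES1 binds cyclin-dependent kinases and had a gap of 0.94, DAAM1, a formin of Wnt signalling, 0.83, VILL, a villin-like actin binder, 1.12, and SRGAP3, a GTPase-activating protein for Rac, 0.74. Of the 4 other probe sets of DAAM1, 1 had a gap of 0.59 and 3 lay below 0.

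Membrane transport was represented by KCNK5, ATP8A1, SLC37A2 and DISP2. KCNK5, a background potassium channel of epithelia, was at 7.17 and 8.79 in MCF-10F, 8.96 and 8.60 in the clone and 10.49 to 10.74 with ATRA, and none of its 13 measured relatives had a gap above 0. ATP8A1, which flips phosphatidylserine to the inner leaflet of membranes, was at 3.53 and 4.21 in MCF-10F, 3.79 and 4.32 in the clone, 5.66 and 5.98 at 1 μM and 6.71 and 6.95 at 10 μM. MCF-10F replicate 1 and trMCF clone 11 replicate 1 lay under a signal of 16, and its other probe sets, both dim, had gaps below 0. SLC37A2, a sugar-phosphate exchanger, had a gap of 0.91, and its relative SLC37A1 0.45. DISP2, of the family that releases hedgehog proteins, had a gap of 0.75.

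Replication, mitosis and ubiquitin genes were OTUB2, GINS3, RMND5B, CENPV and SPC24. OTUB2, a deubiquitinating enzyme, was at 6.72 and 6.43 in MCF-10F, 5.99 and 5.97 in the clone, 8.70 and 8.66 at 1 μM and 8.88 and 9.0 at 10 μM, and its other probe sets, both bright, had gaps of 1.87 and 0.10. GINS3, part of the replicative helicase, lay at 7.31 to 8.21 in the lines and 9.19 to 9.25 with ATRA. Its partners GINS1, GINS2 and GINS4 had gaps of 0.45, 0.22 and -0.07. SPC24, of the kinetochore NDC80 complex, had a gap of 0.75, while NDC80, NUF2 and SPC25 had -0.08, -0.91 and -0.14. CENPV, a centromere protein, had a gap of 0.88 and RMND5B, part of a ubiquitin ligase, 0.93. The other probe set of RMND5B, also bright, had a gap of -0.145, so the probe sets of RMND5B disagree. The 6 remaining members were CFAP95, given above, and CRYBA2, a crystallin, AGFG2, SHISAL1, VAT1L and ANXA10, an annexin, with gaps of 0.74 to 1.28. CRYBA2 was at 6.68 and 4.08 in MCF-10F, the widest distance of any member between arrays of that group. ANXA10 was at 6.97 and 7.74 at 1 μM and 8.22 and 7.11 at 10 μM, so its treated arrays overlapped between doses and spread more than those of any other member at 10 μM.

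**Figure D3:**
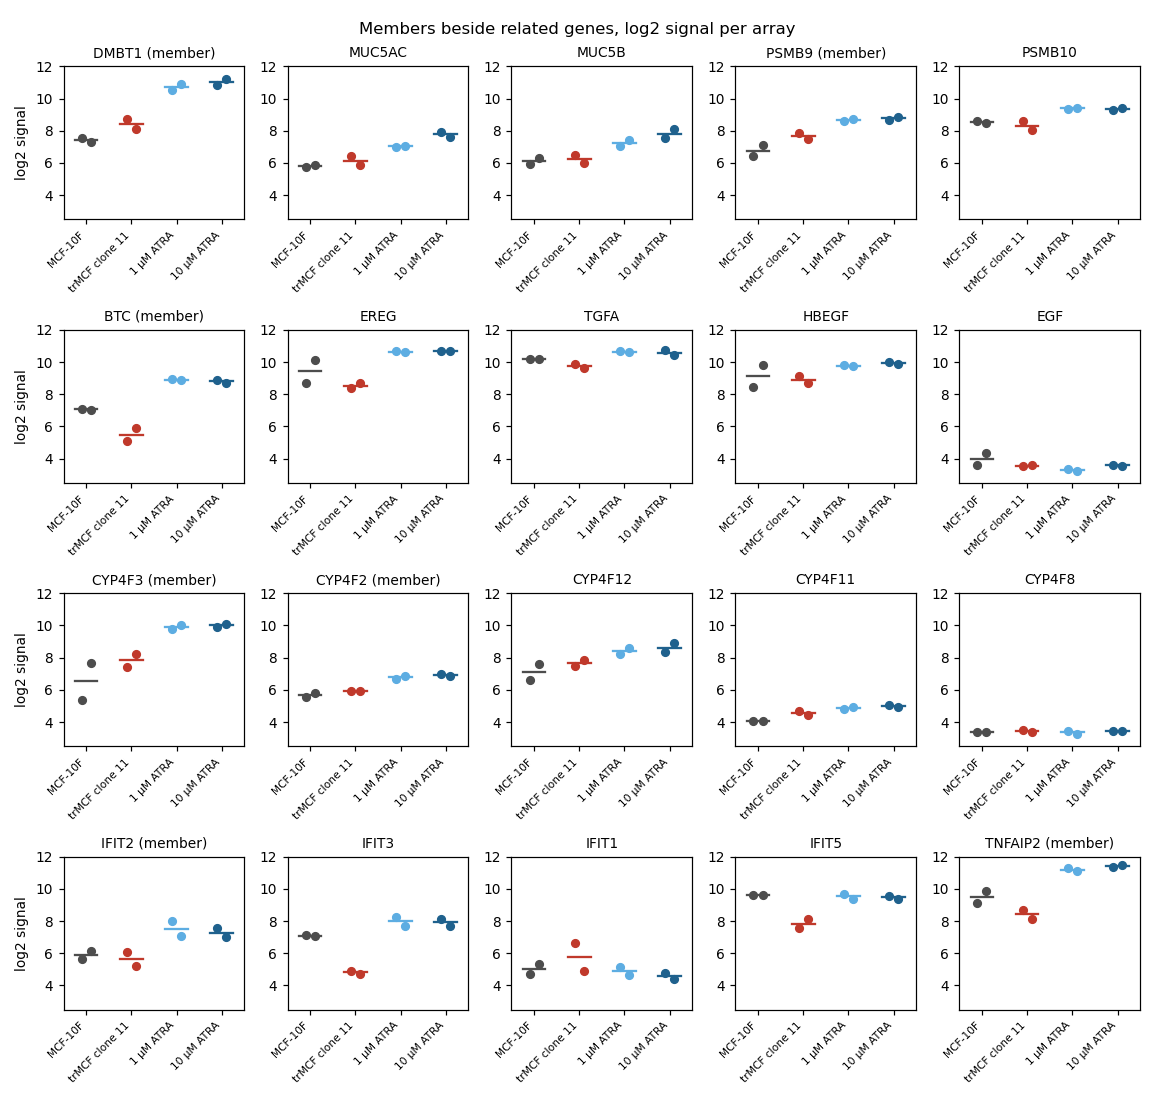
Log2 signal per array (points) and group mean (lines) for 7 members and 13 other genes, most of them relatives. BTC, CYP4F3 and IFIT2 lie above both lines on all ATRA arrays, whereas EGF, CYP4F8 and IFIT1 do not (gaps of -1.15, -0.21 and -2.23).

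A gene's other probe sets were not used by the rule, but they read the same contrast on the same arrays, so their gaps are also descriptions. Another single-gene probe set existed for 33 members, 72 in all. Every ATRA array lay above every line array for 39 of the 72, beside 6.43% of the other probe sets of all genes, and for 20 the gap was at least 0.7. Among the 41 with an ATRA mean of 6 or more, 31 did not overlap, beside 12.7% of the bright other probe sets of all genes. Among the 31 dim ones 8 did not overlap, beside 2.03% of the dim other probe sets of all genes. Seen by gene, 25 members had a bright second probe set, and 22 of these had at least 1 that did not overlap. For 22 members a single probe set is the whole evidence.

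**Figure D4:**
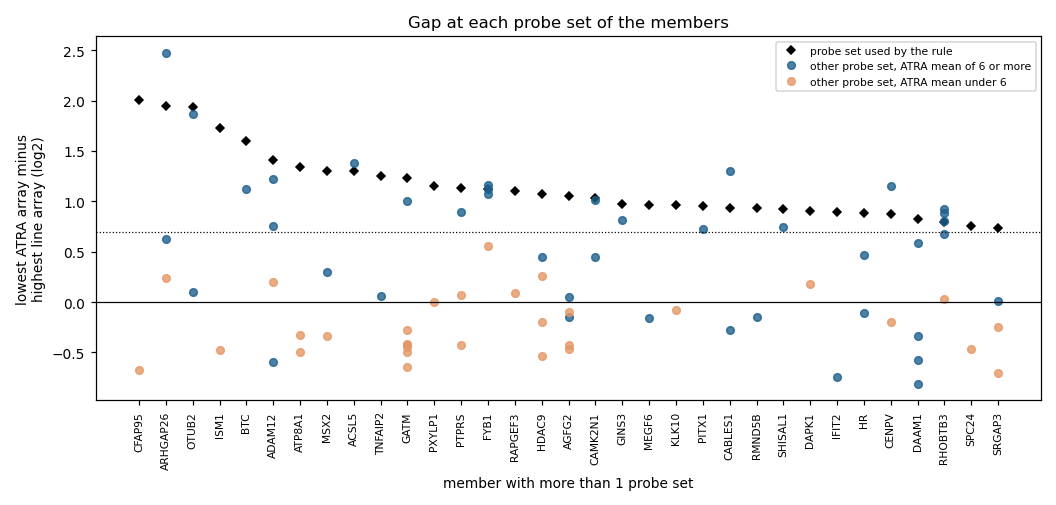
Gap (lowest ATRA array minus highest line array, log2) at the probe set used by the rule (diamonds) and at every other probe set (circles; blue with an ATRA mean of 6 or more, orange below it) of the 33 members that have more than 1. Of the blue circles 31 of 41 lie above 0, and of the orange ones 8 of 31.

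The difference between trMCF clone 11 and MCF-10F, without ATRA, did not itself enter the rule. The highest of these 4 line arrays and the 1 μM arrays did, so the choice of members may have shaped this difference and its spread. The comparison was tested with limma on the 6 arrays of both lines and the 1 μM dose. It asked whether genes that ATRA placed above both lines already differed between them. At an adjusted p under 0.05, 3 of 55 members differed (5.45%), beside 4.53% of all genes and 6.5% of genes with an ATRA mean of 6 or more, so the share was near the background. GATM was higher in the clone by 1.10 (SE 0.151, adjusted p = 0.0292) and ERFE by 1.21 (SE 0.172, adjusted p = 0.0306), with both clone arrays above both MCF-10F arrays. BTC was lower in the clone by -1.57 (SE 0.27, adjusted p = 0.0427), again without overlap. Without trMCF clone 11 replicate 1, the array with the conflicting tag, BTC (-1.17, adjusted p = 0.038) and FYB1 (-2.58, adjusted p = 0.0236) passed, and GATM (1.10) and ERFE (1.27) each had an adjusted p = 0.0504. With only the 4 arrays compared, the adjusted p of the 3 genes was 0.132 to 0.152, and with signals under 16 set to 16 it was 0.0662 (GATM), 0.0943 (ERFE) and 0.16 (BTC), so none of the 3 calls held. Leaving out MCF-10F replicate 1 or either 1 μM array also left 0 calls, and leaving out trMCF clone 11 replicate 2 gave 8. At an unadjusted p under 0.05, 19 members differed, 8 higher and 11 lower in the clone (34.5%, beside 33.8% of genes with an ATRA mean of 6 or more). In all, 24 members stood higher in the clone and 31 lower, with a median difference of -0.13 and a range of -1.80 to 1.30. Differences of at least 2-fold that did not pass were GPAT3 at -1.80 (SE 0.607, adjusted p = 0.177), FYB1 at -1.57 (SE 0.615, adjusted p = 0.236), TNFAIP2 at -1.07 (SE 0.301, adjusted p = 0.122), CYP4F3 at 1.30 (SE 0.721, adjusted p = 0.395) and HDAC9 at 1.18 (SE 0.377, adjusted p = 0.158). All 4 transcription and chromatin regulators were higher in the clone than in MCF-10F in the means and all 5 replication, mitosis and ubiquitin genes lower, none of the 9 at an adjusted p under 0.05. The roles were assigned after the names were seen, so these counts carry no test.

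The doses were compared on the 4 ATRA arrays. The rule needed each of these arrays above both lines, so a gene raised at only 1 dose could not be a member. The dose differences below are partly shaped by that choice. No member differed between 10 and 1 μM at an adjusted p under 0.05 in limma (0 of 55, beside 0% of all genes). At an unadjusted p under 0.05 in limma 5 members did (9.09%), beside 5.31% of genes with an ATRA mean of 6 or more. The lowest adjusted p was that of ATP8A1 at 0.516, with a difference of 1.01 (SE 0.153, unadjusted p = 0.000416 in limma). Both 10 μM arrays of ATP8A1 lay above both 1 μM arrays, and it alone among the members passed a fold of 2 with an unadjusted p under 0.05, beside 0.0361% of genes with an ATRA mean of 6 or more. CFAP95 was higher at 10 μM by 0.69 (SE 0.156, adjusted p = 0.725), also without overlap. Both of these genes were near background in the lines. RHOBTB3 (0.36), OTUB2 (0.27) and AGFG2 (-0.26) were the other members at the unadjusted p. Over the 55 members the dose difference had a median of -0.02 and ran from -0.28 to 1.01, and 27 were higher and 28 lower at 10 μM. The 95% intervals of 50 members lay within a 2-fold change in either direction and those of 41 within a 1.5-fold change. The share of all genes with such intervals was not counted, so these numbers have no background beside them. Regardless of sign, the median dose difference was 0.14 in the members and 0.09 over genes with an ATRA mean of 6 or more. The intervals that reached past 2-fold were those of ATP8A1 (0.64 to 1.38), CFAP95 (0.32 to 1.07), MSX2 (-0.02 to 1.04), PTPRS (-0.03 to 1.17) and ANXA10 (-0.62 to 1.25). For these 5 the interval held a level 2-fold higher at 10 μM.

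**Figure D5:**
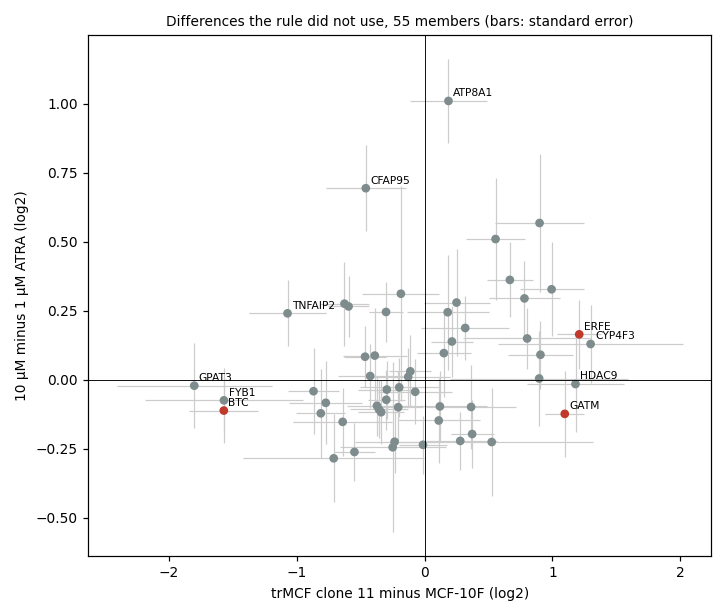
Difference between trMCF clone 11 and MCF-10F (horizontal axis, log2) and between 10 and 1 μM ATRA (vertical axis, log2) for each of the 55 members, with standard errors from limma as bars. Red points are the 3 members with an adjusted p under 0.05 on the horizontal axis (BTC, GATM and ERFE), and ATP8A1 stands highest at 1.01 on the vertical axis.

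Genes around the members were read from 17 lists of pathways and cell functions, which held 549 measured genes, 11 of them members. Of the other 538, 58 rose and 51 fell with ATRA against the clone, beside 7.08% and 5.7% of all genes, and 15 rose and 43 fell against MCF-10F, beside 1.52% and 2.77%. Each time the list genes were called in a larger share than all genes. The lists were chosen with earlier results of these data known, and the excess was not tested. The comparisons with the clone and with MCF-10F share the ATRA arrays. Without any 1 of the ATRA arrays the 109 calls against the clone became 41 to 48 and the 58 against MCF-10F became 19 to 24, and without either clone array the latter became 107. Higher than both lines at an adjusted p were 7 of the 538 list genes, named here after their values were seen. The share of all genes higher than both lines was not counted, so this number has no background beside it. MUC5AC, a gel-forming mucin of mucosal surfaces, where DMBT1 is secreted too, was at 5.73 and 5.85 in MCF-10F, 6.40 and 5.87 in the clone, 6.97 and 7.08 at 1 μM and 7.93 and 7.64 at 10 μM. It rose by 1.27 against the clone (SE 0.176, adjusted p = 0.00786) and by 1.62 against MCF-10F (SE 0.176, adjusted p = 0.00585). MUC5B, the neighbouring gel-forming mucin, rose by 1.31 (SE 0.23, adjusted p = 0.016) and 1.42 (SE 0.23, adjusted p = 0.0249). PSMB10, which sits with PSMB9 in the immunoproteasome, rose by 1.06 (SE 0.165, adjusted p = 0.0113) and 0.83 (SE 0.165, adjusted p = 0.0471), and PSMB8, the remaining inducible subunit, stood 0.57 and 0.60 higher (adjusted p = 0.261 and 0.354). The other 4 were SMAD6, GATA2, IGFBP6 and LGALS9, with rises of 0.56 to 1.54 against the clone. All 7 missed membership, with gaps of 0.32 to 0.66. Without trMCF clone 11 replicate 1, 12 list genes were higher than both lines, of which 4 (MUC5AC, MUC5B, PSMB10 and IGFBP6) were among the 7. SMAD6, GATA2 and LGALS9 then stood 1.36, 0.65 and 0.56 above the clone (adjusted p = 0.0576, 0.0565 and 0.0616).

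By list, the counts are given with all arrays and then without trMCF clone 11 replicate 1, and many of them moved when that array was left out. Calls over all lists together moved too, and the share of all genes called without that array was not counted. A shift can therefore not be read as particular to 1 list. Of 35 retinoid target genes other than TNFAIP2, 8 rose and 1 fell against the clone (9 and 1 without the array), and 2 rose and 1 fell against MCF-10F (6 and 1). NR2F1, an orphan nuclear receptor of this list, rose against the clone by 2.69 (SE 0.268, adjusted p = 0.00317, or 0.00758 without the array). TNFSF10, a death ligand, fell by 4.11 (SE 0.59, adjusted p = 0.0088, or 0.0302). Of 26 retinoid enzymes, carriers and receptors 5 rose and 1 fell against the clone (5 and 1), and 1 rose and 1 fell against MCF-10F (2 and 3).

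Of 41 interferon response genes other than IFIT2, 13 rose and 2 fell against the clone (12 and 1 without the array), and 1 rose and 4 fell against MCF-10F (4 and 7). TLR3, a sensor of double-stranded RNA, rose against the clone by 3.39 (SE 0.197, adjusted p = 0.000857, or 0.00319) and stood 0.44 from MCF-10F (adjusted p = 0.347). Of 30 antigen presentation genes other than PSMB9, 2 rose and 2 fell against the clone (4 and 1), and 1 rose and 0 fell against MCF-10F (2 and 0). In the inflammatory list, with 31 genes other than TNFAIP2, 2 rose and 1 fell against the clone (0 and 1), and 0 rose and 3 fell against MCF-10F (0 and 4). Of 28 mucosal defence genes other than DMBT1, 5 rose and 0 fell against the clone (6 and 0), and 2 rose and 2 fell against MCF-10F (3 and 5). PSCA, a surface antigen of mucosal epithelia, rose against the clone by 4.14 (SE 0.335, adjusted p = 0.00163, or 0.00351) and stood 0.33 from MCF-10F (adjusted p = 0.765).

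Of 40 growth factors and receptors other than BTC, 6 rose and 1 fell against the clone (4 and 1 without the array), and 1 rose and 3 fell against MCF-10F (1 and 6). Among the 42 proteases and inhibitors other than KLK10 the balance against the clone turned with that array, from 2 rises and 4 falls to 6 rises and 3 falls, and against MCF-10F 1 rose and 8 fell (2 and 10). Of 37 channels and transporters other than KCNK5, 5 rose and 1 fell against the clone (4 and 2), and 1 rose and 2 fell against MCF-10F (1 and 4). Of 36 growth arrest and cell death genes other than DAPK1, 0 rose and 13 fell against the clone (0 and 11), and 0 rose and 2 fell against MCF-10F (0 and 4). Of 32 lipid metabolism genes other than ACSL5, 3 rose and 6 fell against the clone (2 and 3), and 0 rose and 5 fell against MCF-10F (0 and 7). Of 45 developmental transcription factors other than MSX2 and PITX1, 5 rose and 3 fell against the clone (3 and 4), and 3 rose and 2 fell against MCF-10F (8 and 4).

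The other 5 lists held no member. Of 35 mammary luminal genes 3 rose and 2 fell against the clone (2 and 1 without the array), and 0 rose and 3 fell against MCF-10F (2 and 4). Of 21 estrogen response genes 1 rose and 2 fell against the clone (1 and 1), and 1 rose and 0 fell against MCF-10F (1 and 0). Of 31 cell adhesion and junction genes 1 rose and 6 fell against the clone (1 and 4), and 0 rose and 4 fell against MCF-10F (1 and 8). Of 42 Wnt, Notch, hedgehog and BMP genes 3 rose and 3 fell against the clone (2 and 2), and 3 rose and 1 fell against MCF-10F (6 and 5). Of 27 squamous differentiation genes 1 rose and 5 fell against the clone (2 and 6), and 0 rose and 5 fell against MCF-10F (0 and 6). Rises against both lines at once numbered 0 to 2 in each of the 17 lists with all arrays and 0 to 3 without that array. The share of all genes was not counted for either.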

How the data were processed

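RNA of 4 groups was hybridized to Affymetrix U133 Plus 2.0 arrays, 2 per group. The deposited values are linear signal intensities, summarised per probe set and scaled between arrays by the authors. Both MAS 5.0 global scaling and Iterative Plier 16 are named in the methods, and the sources used here do not state which of them made the deposited table. Log2 was taken without rescaling. The table had 54675 probe sets, 54613 of them tested after removal of 62 controls; the annotation gives 1 gene for 41091, several for 1801 and none for 11721. A gene was given by its probe set with the highest mean. Tests used limma 3.58.1 (R 4.3.3), lmFit and eBayes with 1 mean per group and no covariate, and Benjamini-Hochberg adjustment over all probe sets tested, a threshold of 0.05, and rose or fell written only of calls. ATRA was compared with the lines on all 8 arrays, both doses pooled as the mean of their group means. Such a fit takes 1 spread per probe set from all groups, though the treated pairs of arrays lay closer together than those of the lines. The standard errors against the lines may therefore be too small. The comparison of the lines with each other pools the 1 μM arrays in the same way. The scripts were tested on simulated data. Members, gene lists and comparisons were chosen with earlier results of these data known. Named members were the 20 with the largest gap, those called, those in a list and the 3 at each side of the limit; other members and family relatives were added by role, and from each list the 2 largest changes could be named. Promoters and biotypes came from RefSeq GRCh38.p14. Precision is limited by having 2 arrays per group. For tables and plots pandas 2.3.3 and matplotlib 3.10.9 were used.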

Additional observations from a re-analysis of the deposited data

How the results depend on the processing

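The 55 members became 106 with a gap of 0.5 and 28 with a gap of 1, and between 40 and 58 genes met the rule under the other settings tried (other limits on the ATRA mean, quantile normalization, a floor of 16, the mean over probe sets, no shared-target probe sets, linear means); with the mean over probe sets and with no shared-target probe sets, 36 of the 55 members were kept each time. With 1 array left out the count was 58 to 154, highest without MCF-10F replicate 1 and next at 88 without MCF-10F replicate 2; it can only rise there by construction. The 3 calls between the lines became 0 with only the 4 arrays compared, 7 with a fold of 2 and an unadjusted p, and 0 with signals under 16 set to 16; the range with 1 array left out was 0 to 8. With the replicate block, which the replicate numbers do not justify by shared deviations (correlations of -0.06 to 0.35 between groups), 1 call was left (GATM; ERFE had an adjusted p = 0.0509 and BTC 0.0605), and the block moved no other count by over 1.5 times. BTC, GATM and ERFE kept their direction in all 42 such values, 20 of them past the threshold. The dose calls stayed at 0 except for 1 with a fold of 2 and an unadjusted p, and were 0 to 0 with 1 array left out. The 109 list genes called against the clone became 46 with the floor of 16 and 41 to 155 with 1 array left out, lowest without any 1 of the ATRA arrays (41 to 48). The 58 called against MCF-10F became 93 with a fold of 2 and an unadjusted p, 20 with the floor and 19 to 107 with 1 array left out (19 to 24 without an ATRA array, 107 without either clone array). The cause of these changes was not tested. With 2 arrays a group, differences under the spread between arrays were not detectable, and levels under a signal of 16 are near background.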
